A study of Homo sapiens with 8 samples.

Results

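The 10 genes described here, MID1IP1, PPM1E, TRIM13, PPFIA2, FEM1C, LIMD1, MAPK6, C1orf159, ST8SIA2 and HMX3, were strongly silenced in HAP1 cells that carried a guide RNA against NELFB, and far less or not at all in cells with a guide RNA against NELFE. They were selected on these measured values, as genes much lower in the NELFB knockdown than in both the NELFE knockdown and the control, and are 10 of 60725 genes in the count table and 10 of 16852 genes with enough reads to be tested. Their fold changes in the NELFB knockdown are therefore a description of how they were chosen. All 10 held, within 3000 bases of an annotated start site, a sequence that matches the last 11 bases of the NELFB guide RNA beside a PAM. So did 0.409% of tested genes, and this window was chosen after the data were seen. Within 500 bases, 8 of the 10 held such a sequence, beside 0.258% of tested genes.

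HAP1, a human line with a nearly haploid genome, was derived from a chronic myeloid leukaemia line. All 8 libraries came from 1 clone, SC9, that stably expressed catalytically dead Cas9 fused to the KRAB repressor domain, so the controls carried the repressor as well and any feature of this clone is shared by every group. The cells were transduced with a lentiviral guide RNA against ADAM22 (the control, construct pLB187, 3 libraries), NELFE (3 libraries) or NELFB (2 libraries), were selected with puromycin 48 h later, and polyadenylated RNA was collected 144 h after transduction. The study describes the replicates of both knockdowns as independent and biological, and the count columns of the controls carry the same replicate mark. The sources used here do not say which steps, such as the transduction, were repeated for each. Each library held between 22037423 and 24444185 reads on genes, so that 1 read was worth 0.0400 to 0.0465 CPM. The genes of the HAP1 parent fusion, BCR and ABL1, were at 21.2 and 20.6 CPM in control cells. The blood cell markers PTPRC, SPI1, GATA1, CD33, HBG1 and HBG2 had at most 9 reads in any library, and HBG1 had 0 reads in all 8.

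NELF is a complex of several subunits, among them NELFB and NELFE, that holds RNA polymerase II in a paused state shortly after it has started to transcribe a gene. In CRISPR interference, a guide RNA leads the dead Cas9 to a matching sequence that lies beside a short PAM (NGG), and the KRAB domain recruits a machinery that deposits repressive chromatin around the start site. Pairing begins at the PAM, and the guide RNA bases nearest to it, called the seed, contribute most to binding. Dead Cas9 can therefore also bind sites that match only there.

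The NELFB guide RNA was read as the 19 bases left when the cloning overhang and a leading G, taken to have been added for transcription, were removed from the oligo in the study's primer list. With that reading, on which the counts over 19 positions below rest, its GC content was 84.2%. Its sequence is shown first because the sites at the 10 genes are compared with it, and the PAM is not part of it.
NELFB guide RNA: gccgagctggagggcgccg

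The sites below, read from GRCh38, are the longest PAM-proximal matches within 3000 bases of an annotated start site of each gene. Each is written 5′ to 3′ along the strand that carries the PAM. Capitals mark bases equal to the guide RNA and the 3 bases of the PAM at the end, and lower case marks mismatches.
NELFB, the intended target, chr9:137255369-137255390, plus strand: GCCGAGCTGGAGGGCGCCGGGG
PPM1E, chr17:58756712-58756733, minus strand: GCCcgGCgGGAGGGCGCCGGGG
HMX3, chr10:123136273-123136294, plus strand: GggGccCTGGAGGGCGCCGCGG
MAPK6, chr15:52019417-52019438, plus strand: GCgGctCgGGAGGGCGCCGCGG
FEM1C, chr5:115544436-115544457, minus strand: GgCGgGaaGGAGGGCGCCGGGG
LIMD1, chr3:45594397-45594418, minus strand: atCGgcCgGGAGGGCGCCGAGG
MID1IP1, chrX:38804055-38804076, minus strand: GggctGagGGAGGGCGCCGGGG
PPFIA2, chr12:81758548-81758569, minus strand: aCgttcCgGGAGGGCGCCGGGG
C1orf159, chr1:1116059-1116080, minus strand: agaaAcCcGGAGGGCGCCGGGG
ST8SIA2, chr15:92394472-92394493, plus strand: GggtcGagGGAGGGCGCCGGGG
TRIM13, chr13:49997324-49997345, plus strand: cggcctgcGGAGGGCGCCGGGG

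All 10 sites share the same 11 bases next to the PAM, and HMX3 extends the unbroken match to 13 bases. The bases farther from the PAM differ between the genes. In all, 16 of the 19 positions matched at PPM1E, 15 at HMX3, MAPK6 and FEM1C, 14 at LIMD1, 13 at MID1IP1, PPFIA2, C1orf159 and ST8SIA2, and 11 at TRIM13, where nothing beyond the seed matched. The 10 sites lie on 9 chromosomes, with MAPK6 and ST8SIA2 both on chromosome 15.

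The sites fall in different parts of the genes. Those of PPM1E, MAPK6, FEM1C, PPFIA2 and ST8SIA2 are in introns of the canonical GENCODE transcript. Those of MID1IP1, C1orf159 and TRIM13 are in 5′ untranslated exons, the last of which also overlaps an exon of the noncoding gene DLEU2. The HMX3 site is in coding sequence, and the LIMD1 site lies upstream of the canonical start, in an exon of another transcript.

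Relative to the canonical start site, and measured to the base next to the PAM, 9 of the 10 sites are downstream. The distances are 27 bases at C1orf159, 216 at MAPK6, 300 at TRIM13, 321 at HMX3, 336 at FEM1C, 609 at ST8SIA2, 799 at PPFIA2, 861 at PPM1E and 2599 at MID1IP1. The LIMD1 site is 351 bases upstream of the canonical start but 76 bases downstream of the start of another transcript. The guide RNA reads along the strand of the gene at 7 of the 10 sites, and against it at MID1IP1, PPM1E and LIMD1.

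Within 500 bases of any annotated start, the window used for all genes, 8 of the 10 genes had at least 9 PAM-proximal bases matched in a row, and each of these 8 reached 11. Of 16645 tested genes with an annotated start, 0.973% had a match of at least 9 bases in this window and 0.258% one of at least 11. In this window the longest match was 5 bases at MID1IP1 and 4 bases at PPM1E. With a window of 3000 bases, chosen after the data were seen, all 10 genes reached 11 bases, against 0.409% of tested genes. The guide RNA against NELFE, with the same GC content of 84.2%, had no match of 8 bases or more within 500 bases of a start of any of the 10 genes, and 0.475% of tested genes had one. The list may have been proposed with these matches known, so no test was made of them.

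MID1IP1 (ENSG00000165175.15, chromosome X, 38801440 to 38806537, plus strand) encodes a protein that binds acetyl-CoA carboxylase and promotes its assembly into active polymers in fatty acid synthesis. It was at 194, 173 and 185 CPM (TMM-normalised counts scaled to library size) in the 3 control libraries, at 99.7, 94.0 and 97.4 CPM in the 3 NELFE knockdown libraries and at 1.70 and 1.45 CPM in the 2 NELFB knockdown libraries. The 3 groups did not overlap. Its level in the NELFB knockdown was 0.858% of the control (95% counting interval 0.674 to 1.08%). This was the lowest point value among the 10 genes, although the counting interval of HMX3, with few reads, includes it. Intervals of this kind cover counting error only, since reads without molecular identifiers are not independent molecules. In RNA from whole cultures, fewer expressing cells and less RNA in each cell cannot be told apart.

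MID1IP1 was the only one of the 10 genes that passed the test in the NELFE knockdown, a comparison on which the list did not directly rest. It fell by 0.92 on the log2 scale (SE 0.0739, edgeR quasi-likelihood test, adjusted p = 0.000172 by Benjamini-Hochberg over all tested genes), and each of the 3 NELFE libraries was below all 3 control libraries. Its level there was 52.7% of the control.

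PPM1E (ENSG00000175175.5, chromosome 17, 58755854 to 58985179, plus strand) encodes a protein phosphatase that acts on calmodulin-dependent kinases. It was at 80.1, 80.2 and 79.0 CPM in the control libraries, 72.1, 69.2 and 72.7 CPM in the NELFE knockdown, and 8.96 and 8.42 CPM in the NELFB knockdown. The control and NELFE libraries did not overlap, but their difference of -0.16 on the log2 scale did not pass the test (SE 0.0683, edgeR adjusted p = 0.139). With 10.9% of the control level left (9.84 to 12.0%), PPM1E kept more of its RNA than most of the other genes, although its site has the most matching positions of the 10.

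A pair of the genes encode parts of ubiquitin ligases. TRIM13 (ENSG00000204977.9, chromosome 13, 49995888 to 50020481, plus strand), a RING-type ligase of the endoplasmic reticulum membrane, was at 33.8, 41.4 and 40.8 CPM in control cells, 36.4, 35.2 and 33.7 CPM in the NELFE knockdown, and 2.16 and 1.75 CPM in the NELFB knockdown. FEM1C (ENSG00000145780.7, chromosome 5, 115520908 to 115544775, minus strand), a substrate receptor of cullin-RING ligases, was at 31.7, 37.2 and 37.3 CPM in control cells, 29.7, 27.7 and 34.3 CPM in the NELFE knockdown, and 2.41 and 2.61 CPM in the NELFB knockdown. For both genes the control and NELFE libraries overlapped and the NELFB libraries lay far below. The levels left were 5.08% of the control (4.09 to 6.25%) for TRIM13 and 7.10% (5.85 to 8.53%) for FEM1C.

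PPFIA2, LIMD1 and MAPK6 encode scaffold and signalling proteins. PPFIA2 (ENSG00000139220.16, chromosome 12, 81257975 to 81759553, minus strand) encodes a liprin, a scaffold of presynaptic sites that binds receptor tyrosine phosphatases. It was at 88.8, 94.0 and 84.1 CPM in control cells, 102, 109 and 86.5 CPM in the NELFE knockdown, and 9.75 and 8.89 CPM in the NELFB knockdown. The control and NELFE libraries overlapped, with the highest value in an NELFE library.

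LIMD1 (ENSG00000144791.9, chromosome 3, 45555394 to 45686341, plus strand), a LIM-domain adaptor that binds LATS kinases, was at 90.4, 96.8 and 100.7 CPM in control cells, 89.9, 88.0 and 91.3 CPM in the NELFE knockdown, and 14.9 and 10.8 CPM in the NELFB knockdown. With 13.4% of the control left (12.3 to 14.6%), LIMD1 was the least reduced of the 10 genes.

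MAPK6 (ENSG00000069956.11, chromosome 15, 51952106 to 52067375, plus strand), an atypical MAP kinase, was at 110.2, 131 and 140 CPM in control cells, 96.3, 87.9 and 110.2 CPM in the NELFE knockdown, and 7.55 and 4.78 CPM in the NELFB knockdown. Its highest NELFE library and lowest control library were at the same level, and the difference of -0.37 (SE 0.139) had an edgeR adjusted p of 0.0978. The 2 NELFB libraries of MAPK6 lay farther apart than those of PPM1E, PPFIA2 or FEM1C.

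ST8SIA2 and HMX3 are best known from the developing nervous system. ST8SIA2 (ENSG00000140557.11, chromosome 15, 92393881 to 92468728, plus strand), a sialyltransferase that builds polysialic acid on NCAM1, was at 10.2, 8.86 and 12.0 CPM in control cells, 12.1, 10.7 and 14.1 CPM in the NELFE knockdown, and 0.456 and 0.342 CPM in the NELFB knockdown. HMX3 (ENSG00000188620.9, chromosome 10, 123135970 to 123139423, plus strand), a homeobox factor of the inner ear and hypothalamus, was at 4.41, 3.28 and 3.41 CPM in control cells, 2.24, 2.67 and 2.93 CPM in the NELFE knockdown, and at 0.166 CPM and 0 in the NELFB knockdown. The NELFE libraries of ST8SIA2 overlapped the controls, whereas those of HMX3 were all below them without passing the test (-0.50, SE 0.264, edgeR adjusted p = 0.223). HMX3 had 4 reads in one NELFB library and 0 in the other, so the 2.26% of control that was left has a wide counting interval (0.612 to 5.86%).

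C1orf159 (ENSG00000131591.17, chromosome 1, 1081818 to 1116361, minus strand) was at 17.8, 14.8 and 12.8 CPM in control cells, 13.3, 13.8 and 12.8 CPM in the NELFE knockdown, and 0.747 and 0.726 CPM in the NELFB knockdown. The control and NELFE libraries overlapped, and 4.85% of the control level (3.36 to 6.79%) was left with the NELFB guide RNA.

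**Figure D1:**
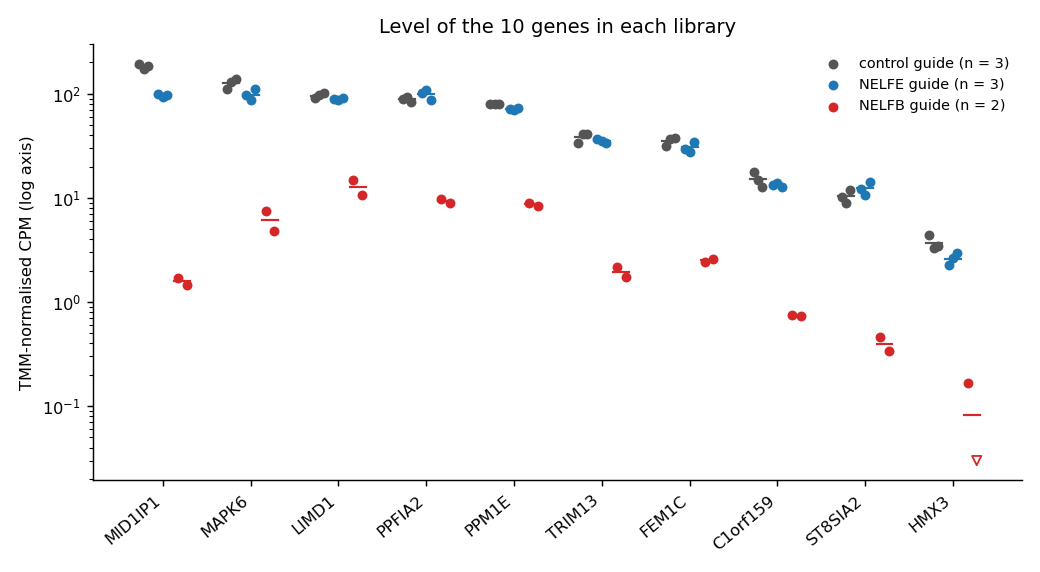
Level of the 10 genes in TMM-normalised CPM (log axis) in each of the 3 control, 3 NELFE and 2 NELFB knockdown libraries, ordered by control level; points are libraries, short lines are group means, and the open triangle at the bottom marks a library with 0 reads. For every gene both NELFB libraries lie below all others, and for MID1IP1, PPM1E and HMX3 the NELFE libraries also lie below all controls. The share of all tested genes with such a separation was not computed, so this is a description.

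The genes covered a wide range of expression before silencing. Per length, as TPM, which divides reads by exon length, the mean control level was 156 TPM for MID1IP1, 78.7 TPM for MAPK6, 49.8 TPM for PPM1E, 42.5 TPM for PPFIA2, 31.0 TPM for LIMD1, 25.4 TPM for FEM1C, 19.5 TPM for TRIM13, 9.80 TPM for C1orf159, 7.22 TPM for ST8SIA2 and 5.33 TPM for HMX3. The median of tested genes was 15.8 TPM, so 7 of the genes were above it and 3 below. Across the 10 genes the share of RNA left in the NELFB knockdown had a Spearman correlation of 0.24 with the control level, 0.27 with the number of matching positions in the site and 0.10 with the distance of the site from the canonical start. These values describe 10 chosen genes that were measured in the same libraries.

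GENCODE places a gene on the other strand across 7 of the 10 genes, and no gene at all across FEM1C and HMX3. The authors counted reads without regard to strand, so reads from stretches that both genes of such a pair share cannot be told apart. How much of their exons is shared was not measured. FEM1C and HMX3, where this does not arise, were at 7.10 and 2.26% of control.

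The canonical promoters, taken from 250 bases before to 50 bases after the start, had a median GC content of 71.9% over the 10 genes, against 65.1% over 16620 tested genes. They ranged from 54.5% at LIMD1 and 60.1% at MID1IP1 to 74.8% at TRIM13.

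In the NELFB knockdown against control, the log2 fold changes of the 10 genes ran from -6.86 for MID1IP1 to -2.90 for LIMD1 with a median of -4.33. All 10 were among the genes called lower, which were 8.88% of the 16852 tested genes, while 10.6% were called higher. Against the NELFE knockdown the changes ran from -5.94 to -2.81 with a median of -4.07, where 0.237% of tested genes (40 genes) were called lower. The same 40 genes, 0.237%, were lower than both other groups. These contrasts chose the list and nothing is read from them.

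Ordered by the smaller of the 2 differences, LIMD1 at 2.81 was the last gene of the list and CCT5 at 2.60, a chaperonin subunit that was named after its value was seen, was just outside it. The list is not a clean cut by size, because other genes lay between its members. Genes with at least 1 log2 CPM on average that were lower than both groups by as much and not listed were MID1IP1-AS1, NELFB itself, PPFIA2-AS1, XKR8, ARHGAP4 and ZNF799, and below that level ENSG00000235806, SHISA8 and TOR4A.

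NELFB was at 74.4, 72.7 and 79.1 CPM in control cells, 63.4, 63.9 and 64.0 CPM in the NELFE knockdown, and 3.07 and 2.78 CPM with its own guide RNA. With this guide RNA, which matches it perfectly, NELFB was at 3.88% of control (3.26 to 4.59%). Of the listed genes with 6 mismatches, MID1IP1 was at 0.858% there, ST8SIA2 at 3.87% (2.32 to 6.09%), C1orf159 at 4.85% and PPFIA2 at 10.5%. PPM1E, with 3 mismatches, was at 10.9%. MID1IP1 was also at 52.7% of control in the NELFE knockdown. Whether the sites set these levels was not tested. NELFE was at 50.5, 49.4 and 48.1 CPM in control cells, 2.41, 2.37 and 2.98 CPM with its own guide RNA and 61.2 and 56.9 CPM in the NELFB knockdown. Each target was thus low with its own guide RNA. ADAM22, the target in the control libraries, was at 13.7, 12.9 and 11.3 CPM there, at 40.3, 47.4 and 29.9 CPM in the NELFE knockdown, and at 35.6 and 41.1 CPM in the NELFB knockdown.

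In the NELFE knockdown, 1 of the 10 genes was called lower and none higher, beside 7.04% of all tested genes called lower and 7.92% called higher. At an unadjusted p under 0.05 there were 3 of the 10, MID1IP1, PPM1E and MAPK6, a share near the 30.9% of all tested genes. The fold changes of the other 7 were -0.50 for HMX3, -0.21 for FEM1C, -0.18 for C1orf159, -0.14 for TRIM13, -0.10 for LIMD1, 0.16 for PPFIA2 and 0.25 for ST8SIA2. The median over the 10 genes was -0.17, against -0.01 over all tested genes. Of the 10 values 8 were negative, as were 8539 of those of all 16852 tested genes. The 10 genes were chosen as low against these same control libraries, so this is a description. The knockdowns share their control libraries, so the 2 sets of fold changes of a gene are not independent.

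**Figure D2:**
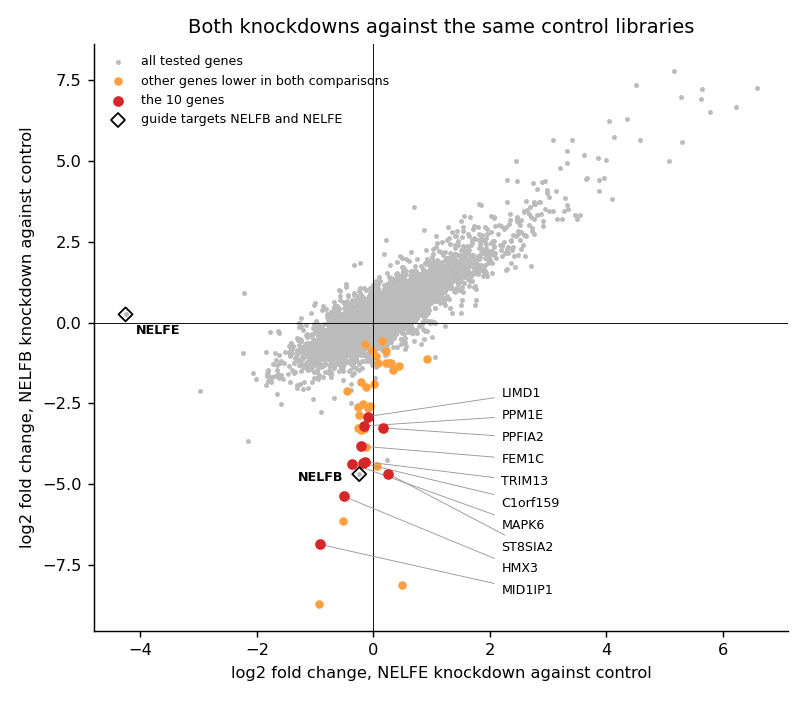
Log2 fold change of each tested gene in the NELFE knockdown (horizontal axis) and in the NELFB knockdown (vertical axis), both against the same 3 control libraries; grey points are all 16852 tested genes, red points the 10 genes, orange points the other genes lower than both groups, and diamonds the guide RNA targets. The 10 genes lie between -6.86 and -2.90 vertically and between -0.92 and 0.25 horizontally, below the diagonal cloud.

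The 40 genes lower than both groups comprise the 10 genes, NELFB and 29 others. Of these 29, 14 had a match of at least 11 bases within 500 bases of a start, 5 had one of 9 or 10 bases and 10 had a shorter one. Leaving out NELFB, 22 of the 42 tested genes with a match of at least 11 bases were lower than both groups (52.4%), 8 of them from the list, against 4.20% of 119 genes with 9 or 10 bases, 0.123% of 2438 genes with 7 or 8 and 0.0641% of 14045 genes with fewer. Some of these genes share a site. Counted by site, with NELFB included, 39 sites of at least 11 bases lay near a tested gene and 23 near a lower one. DLEU2 and SEPTIN1, not lower than both groups, share their sites with TRIM13 and ZNF48, which were.

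A long match was not always accompanied by lower expression. The 20 genes with a match of at least 11 bases that were not lower than both groups, a set defined by these values, had a median difference between the knockdowns of -0.12, ranging from -0.77 to 0.67, and 15 of the 20 differences were negative. Against control alone, 4 of the 20 were called lower in the NELFB knockdown and 4 higher, beside 8.88% and 10.6% of all tested genes. Those called lower were KLF13 (-0.69, edgeR adjusted p = 0.0025), RABL6 (-0.61, adjusted p = 0.00601), ITGB3BP (-0.44, adjusted p = 0.0339) and DLEU2 (-0.82, adjusted p = 0.0432). Those called higher were MACROD2 (2.73, edgeR adjusted p = 0.00421), ENSG00000282057 (1.55, adjusted p = 0.0242), SLC12A2 (0.38, adjusted p = 0.0495) and SMARCA2 (0.33, adjusted p = 0.0228). These 8 genes were named after their values were seen. All 8 listed genes with such a match had it downstream of the nearest start. Of the unlisted genes, 9 of 19 with the match downstream and 5 of 15 with it upstream were lower than both groups, a split that was made after the values were seen and was not tested.

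**Figure D3:**
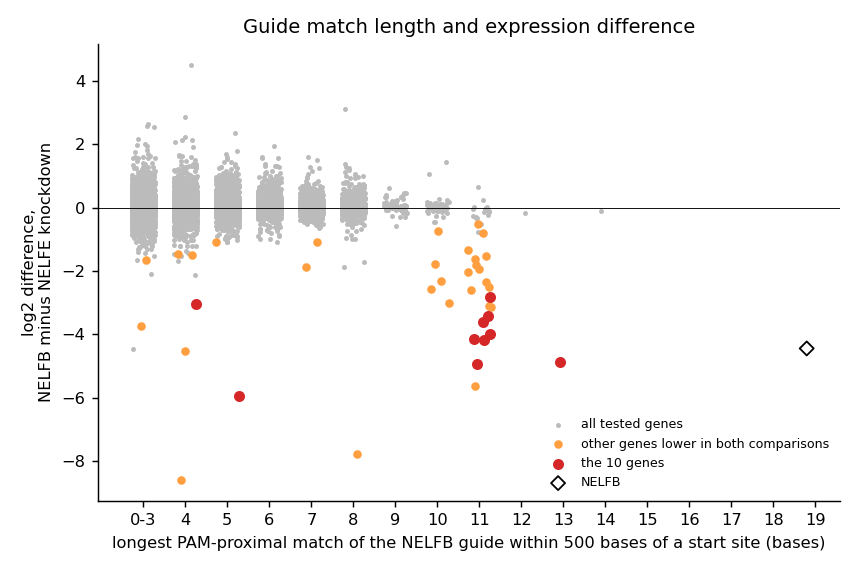
Log2 difference between the NELFB and NELFE knockdowns for every tested gene with an annotated start (vertical axis) against the longest unbroken PAM-proximal match of the NELFB guide RNA within 500 bases of a start (horizontal axis, bases, with a small random sideways shift); red points are the 10 genes, orange points other genes lower than both groups and the diamond is NELFB. The red points at 4 and 5 bases are PPM1E and MID1IP1, whose 11-base matches lie farther from the start.

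The genes most like the list in their levels, by the smaller of the 2 differences, were MID1IP1-AS1, NELFB, PPFIA2-AS1, XKR8 and ARHGAP4. The pair MID1IP1-AS1 and PPFIA2-AS1 are noncoding genes that lie across MID1IP1 and PPFIA2 on the other strand, where unstranded reads cannot be assigned with certainty. MID1IP1-AS1 had 162, 133 and 152 reads in the control libraries, 115, 96 and 92 with the NELFE guide RNA and 3 and 1 with the NELFB guide RNA, which is 1.33% of control (0.360 to 3.42%). The site given above for MID1IP1 is 175 bases upstream of its start. PPFIA2-AS1 starts far inside PPFIA2 and has no match near its own start. It was at 6.37, 3.28 and 4.12 CPM in the control libraries, at 3.78, 4.34 and 4.56 CPM with the NELFE guide RNA and at 0.332 and 0.299 CPM with the NELFB guide RNA, 6.79% of control (3.76 to 11.4%).

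XKR8, a phospholipid scramblase of dying cells, and ARHGAP4 carried the same 11 seed bases as the list, 42 and 165 bases downstream of an annotated start.
XKR8, chr1:27960084-27960105, minus strand: GtCccGaaGGAGGGCGCCGCGG
ARHGAP4, chrX:153928171-153928192, plus strand: GggcgGaaGGAGGGCGCCGCGG
XKR8 had 273, 269 and 237 reads in the control libraries, 243, 216 and 198 with the NELFE guide RNA and 36 and 16 with the NELFB guide RNA. ARHGAP4 had 122, 66 and 48 reads in the control libraries, 84, 79 and 42 with the NELFE guide RNA and 8 and 8 with the NELFB guide RNA. In CPM, the control and NELFE libraries of ARHGAP4 overlapped. Those of XKR8 did not, at 10.9, 11.9 and 10.4 CPM in control cells and 10.1, 9.29 and 9.21 CPM in the NELFE knockdown. This difference did not pass the test (-0.22, SE 0.178, edgeR adjusted p = 0.452). In the NELFB knockdown, 9.89% (7.32 to 13.1%) of control was left for XKR8 and 10.0% (5.65 to 16.7%) for ARHGAP4.

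Within 100 kb, genes called lower in the NELFB knockdown lay beside MID1IP1, HMX3, MAPK6 and TRIM13. Distances depend on which start is used, because MAPK6 has a canonical start far inside its outermost annotation. Between outermost starts, the only tested gene within 10 kb was MID1IP1-AS1, and within 50 kb there were 6 tested genes, of which 4 were called lower in the NELFB knockdown than in control (8.88% of all tested genes were) and 2, both beside MID1IP1, also lower than in the NELFE knockdown. The second was the noncoding gene ENSG00000235806, whose start is 31109 bases upstream of that of MID1IP1. It was at 1.56, 1.51 and 1.36 CPM in control cells, at 2.08, 2.41 and 1.72 CPM in the NELFE knockdown, and had 0 reads in both NELFB libraries. Its longest guide match near a start was 4 bases.

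Between canonical starts, a choice made after the data were seen, 2 tested genes lay within 10 kb, MID1IP1-AS1 and ENSG00000274528, and both were called lower in the NELFB knockdown than in control. ENSG00000274528 is a noncoding gene on the other strand, 1187 bases upstream of the canonical MAPK6 start and inside the outermost span of MAPK6. Reads from any stretch that the pair shares cannot be told apart without strand. ENSG00000274528 had 22, 10 and 3 reads in the control libraries, 12, 16 and 12 with the NELFE guide RNA and 0 and 1 with the NELFB guide RNA, or 4.23% of control (counting interval 0.104 to 25.2%). It passed the test against control (edgeR adjusted p = 0.025) and not against the NELFE knockdown (adjusted p = 0.279). Within 50 kb, 5 of 6 tested genes were then lower than in control.

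HMX2, a homeobox gene whose start is 12166 bases from that of its paralog HMX3, fell in the NELFB knockdown (-2.77, SE 0.456, edgeR adjusted p = 0.00311). HMX2 ran from -3.11 to -2.35 with libraries left out and kept this call in 14 of 15 alternatives. It was at 2.18 CPM on average in control cells, 1.18 CPM in the NELFE knockdown, and 0.317 CPM in the NELFB knockdown, and the difference between the knockdowns did not pass the test (-1.88, SE 0.483, edgeR adjusted p = 0.355). BUB3, a mitotic checkpoint gene 18432 bases from HMX3, fell by 0.39 against control (SE 0.0857, edgeR adjusted p = 0.0115). DLEU1, a noncoding gene 86281 bases from TRIM13, fell by 0.56 (SE 0.171, edgeR adjusted p = 0.0423). LEO1, a PAF1 complex gene 19672 bases from the outermost start of MAPK6, was at -0.22 (SE 0.107) and did not pass (edgeR adjusted p = 0.167). Within 100 kb of outermost starts, 16 genes were tested, and the same 2 were lower than in the NELFE knockdown. Against control, 6 were lower and 1 higher, beside 8.88% and 10.6% of all tested genes. The higher one was TEX14, a gene of germ cell intercellular bridges that starts upstream of PPM1E, which rose in both knockdowns, by 2.31 with the NELFE guide RNA (SE 0.296, edgeR adjusted p = 0.00143) and by 2.15 with the NELFB guide RNA (SE 0.322, edgeR adjusted p = 0.00206). Within 200 kb, 11 of 43 tested genes were lower and 2 higher than in control, beside the same shares of all tested genes. Those called lower between 100 and 200 kb were KLHL17 (-0.85), NOC2L (-0.37) and PUSL1 (-0.45) beside C1orf159, LARS2 (-0.29) beside LIMD1, and DLEU2. The other higher gene was the noncoding LINC02593 beside C1orf159, at 0.71 in the NELFB knockdown and 0.79 in the NELFE knockdown (edgeR adjusted p = 0.00827 and 0.00469). KLHL17, NOC2L and PUSL1 were also called lower in the NELFE knockdown, at -0.73, -0.30 and -0.41.

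**Figure D4:**
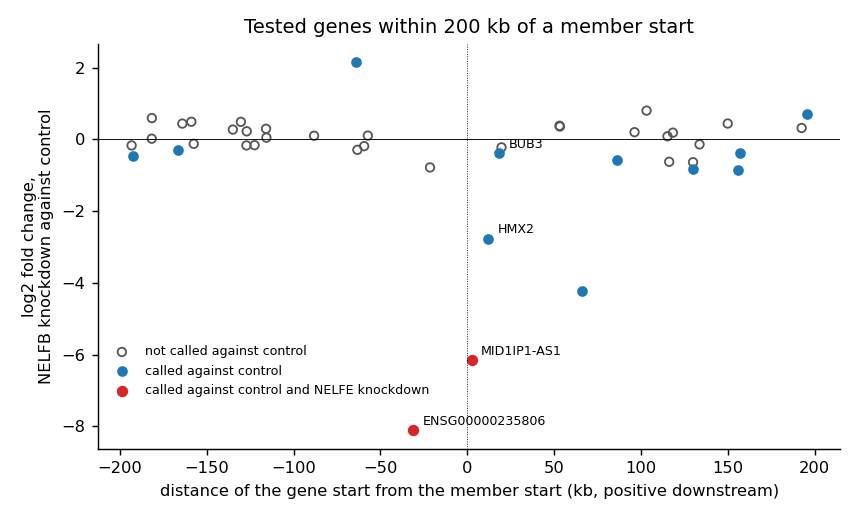
Log2 fold change in the NELFB knockdown against control (vertical axis) of each tested gene within 200 kb of one of the 10 genes, against the distance between the outermost starts of the 2 genes in kb (positive downstream); open points were not called, blue points were called against control and red points against both other groups. MID1IP1-AS1 and ENSG00000235806, the red points, are both beside MID1IP1.

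Relatives of the 10 genes (paralogs and a few genes of related name) were described from a list of 21, of which 16 were tested. In the NELFE knockdown 2 of the 16 rose and 1 fell, beside 7.92% and 7.04% of all tested genes. In the NELFB knockdown 3 rose and 2 fell, beside 10.6% and 8.88%, and none passed the test between the knockdowns (1 of the 16 had an unadjusted p under 0.05 in edgeR, as did 5.12% of all tested genes). The median log2 fold change of the tested relatives was -0.01 in the NELFE knockdown and 0.02 in the NELFB knockdown. MID1, the microtubule-binding ligase that MID1IP1 was named for, rose by 0.57 and 0.90 (edgeR adjusted p = 0.0388 and 0.00671). MAPK4, the closest relative of MAPK6, rose by 0.57 in both (adjusted p = 0.0366 and 0.0427). LIMD2 fell by 0.34 and by 0.39 (adjusted p = 0.0414 and 0.0331). FEM1A, which shares its substrate type with FEM1C, rose in the NELFB knockdown (0.62, adjusted p = 0.0267) and was at 0.46 in the NELFE knockdown (adjusted p = 0.0653). FEM1B, at 138 TPM the most abundant of them, was at -0.08 and -0.01 and did not pass either test. None of these calls was kept under all 15 alternatives. The NELFE call was kept in 8 for MID1, 8 for MAPK4 and 7 for LIMD2. The NELFB call was kept in 14 for MID1, 10 for MAPK4, 12 for LIMD2 and 13 for FEM1A.

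The list of partners held 17 genes, all of them tested. Of these, 16 encode partners, substrates or pathway members of the 10 proteins, and DLEU2 is a noncoding gene across TRIM13. In the NELFE knockdown 1 of the 17 rose and 3 fell, beside 7.92% and 7.04% of all tested genes. In the NELFB knockdown 2 rose and 2 fell, or 2 and 1 of the 16 without DLEU2, beside 10.6% and 8.88%, and none passed the test between the knockdowns in edgeR, where 0 also had an unadjusted p under 0.05, beside 5.12% of all tested genes, a share at which a list of this size would hold few or none. ACACA, the acetyl-CoA carboxylase that MID1IP1 binds, fell by 0.32 in the NELFE knockdown (edgeR adjusted p = 0.0458) and was at -0.28 in the NELFB knockdown (adjusted p = 0.0961). RBX1, the RING subunit of the cullin ligases that FEM1C serves and at 97.4 TPM the most abundant of the partners, fell by 0.46 and by 0.64 (adjusted p = 0.0125 and 0.0041). LATS1, a kinase bound by LIMD1, fell by 0.32 in the NELFE knockdown (adjusted p = 0.0286) and was at -0.27 in the NELFB knockdown (adjusted p = 0.0634), while LATS2 rose by 0.44 in the NELFB knockdown (adjusted p = 0.0203) and was at 0.25 in the NELFE knockdown (adjusted p = 0.118). Of 15 alternatives, the NELFE call was kept in 7 for ACACA, 8 for LATS1 and 13 for RBX1, and the NELFB call in 14 for RBX1 and 12 for LATS2.

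NCAM1, the carrier of the polysialic acid that ST8SIA2 makes, rose in both knockdowns, by 1.68 (SE 0.408, edgeR adjusted p = 0.0227) and 2.41 (SE 0.409, edgeR adjusted p = 0.00365), from 0.214 CPM in control cells to 0.691 and 1.16 CPM. DLEU2, which lies across TRIM13 on the other strand and contains its guide match, fell in the NELFB knockdown (-0.82, SE 0.249, edgeR adjusted p = 0.0432) and was at -0.52 in the NELFE knockdown (SE 0.217, edgeR adjusted p = 0.134). The NELFB call of DLEU2 was kept in 10 of 15 alternatives, and the calls of NCAM1 in 13 and 14. DLEU2 kept 12.1 CPM of 21.2 CPM in the NELFB libraries, where TRIM13 kept 1.95 CPM of 38.7 CPM.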

How the data were processed

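Polyadenylated RNA of 8 HAP1 libraries was read from one end (65 bases). The authors aligned the reads with STAR 2.5.4a to GRCh38 after FastQC 0.11.6 and deposited raw counts per gene of Gencode 24, without strand. Totals were 22037423 to 24444185 counts per library, and no 2 columns were identical. The tests used edgeR 4.0.16 in R 4.3.3 (TMM, filterByExpr, robust quasi-likelihood fit of 3 groups, Benjamini-Hochberg, called at adjusted p under 0.05, prior count 0.125), after a check on simulated counts. Normalised CPM and TPM were computed from the counts. Symbols, starts and lengths came from GENCODE 44, which matched 98.8% of tested genes. Guide RNA sequences came from the study's primer list, and chromosomes 1 to 22, X and Y were scanned on both strands beside NGG. The sequence of the control guide RNA was not analysed here.

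The 10 genes and all gene lists were chosen with earlier results of these data known. The genes named are these 10, the guide RNA targets, the 5 unlisted genes with the largest drop (average log2 CPM of at least 1), tested genes within 10 kb, and genes of the lists of relatives and partners called in any comparison or most abundant. Other names were chosen after their values were seen. Marker genes for HAP1 were fixed from general knowledge. Alternatives were DESeq2 1.42.0, its size factors in edgeR, no filter, a mean count of at least 10, a prior count of 2, only the libraries compared, a replicate block, each library left out, and other windows, match lengths and a NAG PAM. The study's own DESeq2 comparison pooled the knockdowns, which was not done here because the 10 genes differ between them.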

Additional observations from a re-analysis of the deposited data

Results flagged for a closer look

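MID1IP1-AS1, PPFIA2-AS1, XKR8 and ARHGAP4 are given for a closer look because the effects of the 2 knockdowns on them differed. They were taken as unlisted genes with the largest drop in the NELFB knockdown. The differences and the counts of calls below are therefore a description and carry no test. The log2 difference between the NELFB and NELFE knockdowns was -5.62 for MID1IP1-AS1 (SE 0.340), -3.72 for PPFIA2-AS1 (SE 0.381), -3.12 for XKR8 (SE 0.258) and -3.11 for ARHGAP4 (SE 0.490). With 3 and 1 reads in the NELFB libraries, the value of MID1IP1-AS1 moves with the prior count. With libraries left out it ran from -6.53 to -5.08, and that of XKR8 from -3.80 to -2.67. Leaving out an NELFB library keeps 1 in that group, and the control and NELFE libraries then give the spread. MID1IP1-AS1, PPFIA2-AS1 and XKR8 were called between the knockdowns in each of 15 alternatives, whereas ARHGAP4 did so in 10, and in 3 of the 8 that leave out a library. ERRFI1, a feedback inhibitor of the EGF receptor that was named after its values were seen, differed by -2.04 (SE 0.214), with log2 fold changes against control of 0.92 in the NELFE knockdown and -1.12 in the NELFB knockdown. It has an 11-base guide match downstream of a start. What sets these genes apart was not tested.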

How the results depend on the processing

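The NELFB values of the 10 genes rest on 2 libraries, and reads from stretches shared by genes on opposite strands cannot be separated. Under all 15 alternatives of the expression fit, each of the 10 genes stayed lower than both other groups. The genes were chosen for this in the same libraries, so it is a description and no support. None of their NELFE values changed sign. MAPK6 passed in 4 of the 15 and was then the second gene lower in the NELFE knockdown, where MID1IP1 passed in all 15. Depth limits HMX3 most, whose log2 fold change in the NELFB knockdown ran from -9.43 to -4.44 with libraries left out.

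With DESeq2, 36 genes were higher with the NELFB than with the NELFE guide RNA, in place of 13. Without the filter on low counts, 95 were higher, 66 lower and 62 lower than both groups, 2 of the 10 genes were lower in the NELFE knockdown, 7 genes of the partner list were called in the NELFB knockdown and 1 relative between the knockdowns. With only the libraries compared, 0 relatives and 2 genes of the partner list were called in the NELFE knockdown, and 8 genes were higher with the NELFB than with the NELFE guide RNA. Within 50 kb, 4 neighbours were lower than in control and 2 lower than in the NELFE knockdown, and with canonical in place of outermost starts, a choice made after the data were seen, 2 within 10 kb were lower than in control. With a 250-base window 4 of the 10 genes had a guide match, as did 0.595% of tested genes. The latter share was 7.70% for 8 bases, 0.258% for 11 bases and 1.53% for 3000 bases.

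Whether the replicate numbers pair the libraries was not settled. Same-numbered libraries of the control and NELFE groups correlated by 0.27, 0.05 and 0.45 in their deviations. Differently numbered ones ran from -0.38 to 0.23. Same-numbered NELFE and NELFB libraries correlated by 0.10 and 0.20, and same-numbered control and NELFB libraries by -0.02 and -0.01. With the replicate numbers as a block, 2408 genes were higher and 2355 lower in the NELFE knockdown, 2312 lower in the NELFB knockdown, 126 higher and 69 lower between the knockdowns and 62 lower than both groups. Of the 10 genes 2 were lower in the NELFE knockdown, as was 1 neighbour, 7 relatives and 9 genes of the partner list were called there, and 8 relatives and 7 of the partner list in the NELFB knockdown.

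With each library left out, genes called in the NELFE knockdown ranged from 561 to 1620 higher and 429 to 1503 lower, and in the NELFB knockdown from 380 to 2218 higher and 223 to 2098 lower, the lowest without NELFB replicate 1. Between the knockdowns they ranged from 2 to 34 higher and 24 to 47 lower, and 24 to 47 were lower than both groups, with 24 without NELFB replicate 2. Of the 10 genes, 1 to 2 were lower in the NELFE knockdown. Relatives called ranged from 0 to 3 in the NELFE and 0 to 6 in the NELFB knockdown, and genes of the partner list from 1 to 5 and 1 to 6.

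Sign changes were limited to genes outside the 10 and to values that were not called. The difference of MAPK4 between the knockdowns turned to -0.00578 with DESeq2, -0.00579 with its size factors, -0.00582 with a mean count of at least 10, -0.00521 without the filter, -0.00742 with only the libraries compared and -0.092 with the block, and ranged from -0.13 to 0.18 with libraries left out. ACACA turned to -0.016 with the block and ranged from -0.045 to 0.13. With libraries left out, LIMD2 ranged from -0.097 to 0.023 and ADAM22 from -0.19 to 0.13 between the knockdowns, and PPFIA2-AS1 from -0.31 to 0.19 and ARHGAP4 from -0.41 to 0.24 in the NELFE knockdown. The causes of these changes were not tested.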

Other observations

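Several of the 40 genes lower than both groups lie close to one another. ATPSCKMT and CCT5 start 32 bases apart on opposite strands, and CCT5 has an 11-base guide match 257 bases from a start, while the longest match at ATPSCKMT is 4 bases. ATPSCKMT, a methyltransferase of mitochondrial ATP synthase, was at 42.5% of control in the NELFB knockdown, and CCT5 at 13.9%. BRICD5 and PGP start 3935 bases apart, with matches of 4 and 11 bases and levels of 42.5 and 28.2% of control. TOR4A starts 22399 bases from NELFB with a match of 4 bases and was at 3.70% of control, from 0.568 CPM. ZNF443 and ZNF799, zinc finger genes 39750 bases apart, and ZNF823 each have a match of 10 bases. These genes were chosen after their values were seen, and what they share beyond position and guide match was not tested.

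Some genes with long matches were not called lower in the NELFB knockdown. These were named after their values were seen. YY1 has an unbroken match of 14 bases 200 bases upstream of a start, longer than that of any of the 10 genes, and differed between the knockdowns by -0.11 (edgeR adjusted p = 0.983) and from control by -0.07 (adjusted p = 0.588). WDR46 has 12 bases 266 bases upstream of a start and differed by -0.18 (edgeR adjusted p = 0.983) and from control by -0.13 (adjusted p = 0.528). HNRNPU has 11 bases with only 3 mismatches in all, 149 bases downstream of a start, and differed by -0.27 (edgeR adjusted p = 0.942) and from control by -0.34 (adjusted p = 0.067). A p above the threshold does not show that a level was unchanged.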
